A study of Mus musculus with 8 samples.

Results

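The genes examined here encode ligands that endothelial and other cells can show to T cells: Cd274 (PD-L1), Pdcd1lg2 (PD-L2), Fasl (FAS ligand), Cd276 (B7-H3), Lgals9 (galectin-9), Pvr (CD155), Cd80 (B7-1), Cd86 (B7-2), Icosl (ICOS ligand) and Cd200. They were chosen by symbol, and all 10 of them were found among the 20057 genes with a value. Of these 10 genes, 7 had a group mean above 10 normalized reads and were tested together with all other genes above that limit (12969 in all), whereas Pdcd1lg2, Fasl and Cd86 lay below it. The RNA came from tumor endothelial cells of B16-F10 melanoma, a mouse melanoma cell line of which 250000 cells were grown under the skin of male C57BL/6 mice aged 8 weeks. The treated tumors received 2 peritumoral injections of 30 µg of the agonistic CD40 mAb FGK4.5 on days 13 and 16, the control tumors received the rat IgG2a isotype control 2A3 by the same scheme, and the labels place the harvest of all tumors 1 day after the last injection. The study's methods also name a later harvest day for sorted cells and a correction for harvest day, and the labels do not tell the libraries apart by day. Cells that carried CD31, a marker of endothelium, and lacked CD45, the common marker of leukocytes, were sorted from each tumor. The comparison asks how tumor endothelial cells change their expression of these ligands when the tumor is treated with CD40-stimulating immunotherapy. There were 4 tumors per group and 1 library per tumor, named after the mice as 5N, 6L, 6R and 10N (agonistic CD40 mAb) and 5L, 7N, 8N and 9L (isotype control).

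PD-L1 and PD-L2 bind PD-1 on activated T cells and dampen signaling from the T-cell receptor. CD80 and CD86 bind CD28, which costimulates T cells, and CTLA-4, which restrains them, while ICOS ligand binds the costimulatory receptor ICOS. The FAS ligand triggers death of cells that carry FAS. CD155 is shared by the activating receptor CD226 and the inhibitory receptors TIGIT and CD96, CD200 restrains myeloid cells through CD200R, and galectin-9 is a secreted lectin for which TIM-3 (Havcr2) is a described partner. IFNγ is the classical inducer of PD-L1, through its receptor, the kinases JAK1 and JAK2 and the transcription factor IRF1, and endothelial cells are known to respond in this way.

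The promoter of Cd274 is shown first because this gene differed most between the groups among the tested ligands. Cd274 and its neighbor Plgrkt, a gene for a plasminogen receptor, are transcribed away from each other, and the coding transcripts of Plgrkt start only a short distance upstream of Cd274. The bases between these starts, at chr19:29367309-29367437 on the plus strand of GRCm38.p6 from the RefSeq promoter table, are printed below with a GC box (GGGCGG, found in either orientation in 32.7% of 32851 promoters) in capitals.

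Cd274 upstream stretch: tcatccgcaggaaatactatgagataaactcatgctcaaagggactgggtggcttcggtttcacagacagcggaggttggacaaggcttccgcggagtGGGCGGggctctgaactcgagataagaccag

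Promoters were matched for 8 of the 10 genes, with Pvr and Cd86 as the unmatched ones, and the 250 bases before each start were searched on both strands for letters typical of factors downstream of IFN and NF-κB. The IFNγ-activated site GAS (TTCNNNGAA) was in 7.02% of all promoters and in none of the 8. The motif ISRE core (GAAANNGAAA) was in 2.98% of all promoters and in 1 of the 8, Lgals9. The shorter IRF short site (AANNGAAA), which lies within every ISRE core match, was in 21.3% of all promoters and in 4 of the 8, namely Cd274, Pdcd1lg2, Lgals9 and Cd200. The NF-κB motif GGGNNTTTCC was in 1.41% of all promoters and in none of the 8. The stretches that hold the matches of Cd274, Pdcd1lg2 and Lgals9 are given with those of Irf1, Socs1 and H2-T23, with the letters of 1 match each in capitals. These 3 were picked for their matches among the 5 genes called higher in the lists of further ligands and of the IFNγ receptor pathway, of which Irf8 also held GAS letters and Tnfsf18 held the IRF short site only. The Socs1 stretch also holds another ISRE core match, GAAACCGAAA, 77 bases before the start. It overlaps the marked match and is not fully in capitals. The match of Cd274 starts 175 bases before the start at chr19:29367254-29367279 and therefore lies upstream of the stretch above. It lies within the GENCODE bounds of Plgrkt, 29348599 to 29367390, which also reach into that stretch. The matches of the other genes are at chr19:29410875-29410900 (Pdcd1lg2, plus strand), chr11:78984962-78984987 (Lgals9, minus strand), chr11:53769916-53769941 (Irf1, plus strand), chr16:10785602-10785627 (Socs1, minus strand) and chr17:36032808-36032833 (H2-T23, minus strand).
Cd274, IRF short site: gaagcctagTTTCGTTTtttcttaaa
Pdcd1lg2, IRF short site: cccccgcttTTTCTTTTtaacaggaa
Lgals9, ISRE core: acatcagcTTTCTTTTTCtctagaca
Irf1, GAS: agcctgatTTCCCCGAAatgatgagg
Socs1, ISRE core: acttgccgGAAAGAGAAAccgaaagc
H2-T23, ISRE core: cctactgcTTTCTCTTTCataaagac

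Cd274, on chromosome 19 from 29367455 to 29388095, reached 221 normalized reads in 5N, 263 in 6L, 375 in 6R and 312 in 10N. In the isotype control group it reached 46.4 normalized reads in 5L, 50.0 in 7N, 139 in 8N and 106 in 9L. The groups did not overlap, and the lowest value with agonistic CD40 mAb was above the highest value with isotype control. The mean in treated tumors was 293 ± 66.0 (SD, n = 4), compared with 85.4 ± 45.0 (SD, n = 4) in controls, so that Cd274 was 3.43-fold higher in treated tumors. Its log2 difference on the log2(value + 1) scale was 1.89 (standard error 0.34, 95% confidence interval 1.14 to 2.65), with an unadjusted p of 0.00019 and a Benjamini-Hochberg adjusted p of 0.245 from limma. In the exact two-sided permutation test of the group means Cd274 gave p = 0.0286, the smallest value that 70 assignments of 4 libraries against 4 allow. A gene was called here when its group means differed by 1.5-fold or more, in either direction, with limma p up to 0.05 before adjustment, and by this rule 1.28% of all tested genes were higher and 0.239% lower. Groups without overlap were seen for 1.09% of all tested genes in the direction of Cd274 and for 0.486% in the other. An adjusted limma p under 0.05 was reached by 0.0154% of the tested genes and by none of the ligands, while the unadjusted limma p was at or below 0.05 for 2 of the 7 tested ligands, Cd274 and Cd80, and for 2.01% of all tested genes. DESeq2 on the recovered reads gave Cd274 an adjusted p of 4.96e-05, and edgeR gave 0.154.

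**Figure D1:**
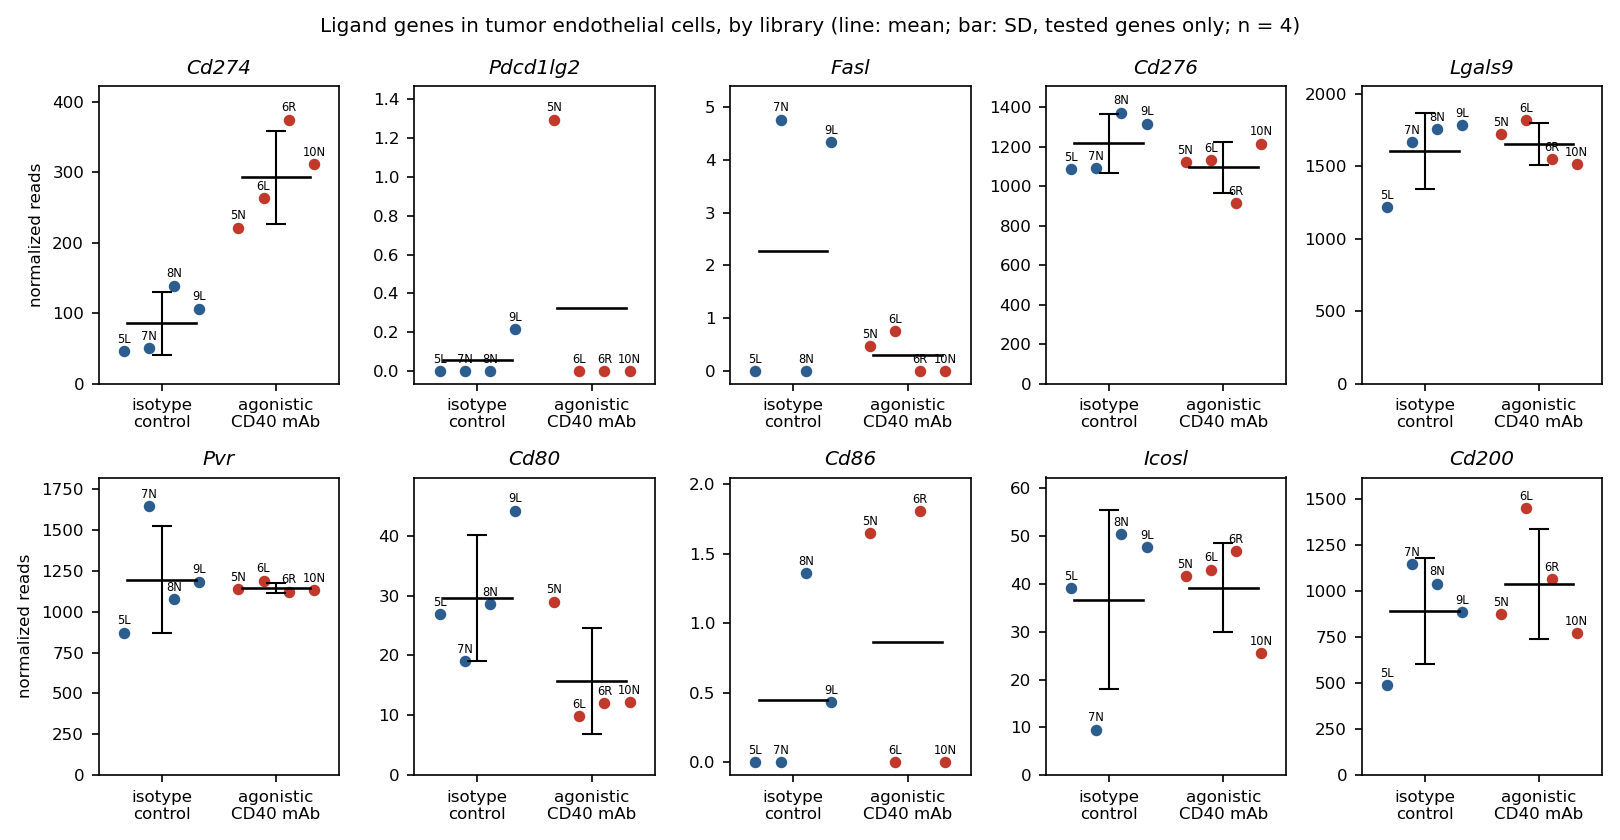
Normalized reads (vertical axes, linear) of the 10 ligand genes in each library, with isotype control in blue and agonistic CD40 mAb in red, a line at the mean and a bar of 1 SD for the 7 tested genes (n = 4). Cd274 lies between 221 and 375 in treated tumors and between 46.4 and 139 in controls, Cd80 overlaps only through library 5N, and the other genes overlap throughout.

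The precision of Cd274 differed among the libraries with their depth. It rested on 1880, 698, 623 and 537 reads in 5N, 6L, 6R and 10N and on 19, 21, 102 and 490 reads in 5L, 7N, 8N and 9L. Counting error alone gave exact Poisson 95% intervals for Cd274 of 28.0 to 72.5 normalized reads in 5L and 30.9 to 76.4 in 7N, both below the lowest treated library, whose interval was 212 to 232. The libraries carry no molecular identifiers, so that these intervals cover counting error only. The shallow libraries 5L and 7N held the lowest Cd274, and without both of them the log2 difference was 1.24 (unadjusted p 0.00023, limma), with the call kept. Leaving out each single library gave log2 differences of Cd274 between 1.66 and 2.18, all past the threshold, and the adjusted limma p ranged from 0.0944 to 0.852 in these fits. The gene AC119228.1, on the opposite strand, overlaps 14.1% of the exonic bases of Cd274, and since the library reagents do not mark strand its reads cannot be told apart from those of Cd274.

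PD-L2, the other ligand of PD-1, was hardly detected. Pdcd1lg2 lies next to Cd274 from 29410919 to 29471161 and had 11 reads in 5N (1.30 normalized reads), 1 read in 9L (0.217) and none in the other 6 libraries. In the libraries without a read, a count of 0 allows up to 3 reads (a one-sided 95% bound), which corresponds to between 1.13 normalized reads in 6L and 7.33 in 5L. A difference in Pdcd1lg2 was therefore not detectable at this depth, and the groups gave p = 1 in the exact permutation test.

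None of the other tested genes that start within 250 kb of Cd274 or Pdcd1lg2 was called. Plgrkt, whose promoter faces that of Cd274, had 163, 178, 158 and 132 normalized reads in 5N, 6L, 6R and 10N and 154, 193, 151 and 140 in 5L, 7N, 8N and 9L. Its log2 difference was -0.01 (95% confidence interval -0.37 to 0.35, limma p 0.938), and the groups overlapped. Jak2, the kinase gene on the other side of Plgrkt, had a log2 difference of 0.12 (-0.24 to 0.47, limma p 0.482), Ric1 one of 0.05 (-0.21 to 0.32, limma p 0.660) and Ermp1 one of -0.02 (-0.34 to 0.31, limma p 0.897). Insl6, Rln1 and A930007I19Rik were below the limit for testing, with at most 14.3 normalized reads in any library.

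Cd80 was the ligand called lower after treatment. It lies on chromosome 16 from 38455561 to 38496335 and had 29.0 normalized reads in 5N, 9.81 in 6L, 12.0 in 6R and 12.2 in 10N, against 26.9 in 5L, 19.0 in 7N, 28.6 in 8N and 44.2 in 9L. In 3 treated libraries Cd80 was below every control, whereas 5N, the deepest library of all, lay within the control range, so the groups overlapped. The mean of Cd80 in treated tumors was 15.8 ± 8.88 (SD, n = 4), compared with 29.7 ± 10.5 (SD, n = 4) in controls, a ratio of 0.531. The log2 difference of -0.94 (standard error 0.41, 95% confidence interval -1.84 to -0.03) had an unadjusted p of 0.0434 and an adjusted p of 1.00 from limma. The exact two-sided permutation test of Cd80 gave p = 0.114.

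The call of Cd80 was not stable. It was lost in edgeR (p 0.0516), in DESeq2 (p 0.0506) and with all genes in the fit (limma p 0.0557), and when 6L, 6R, 10N, 5L, 8N or 9L was left out, with limma p between 0.0533 and 0.132. Without 5N the log2 difference was -1.26 (limma p 0.0089), and without 7N it was -1.12 (limma p 0.0236). Few reads lay behind Cd80 outside 5N and 9L, with 26, 20 and 21 reads in 6L, 6R and 10N and 11, 8 and 21 reads in 5L, 7N and 8N. The exact Poisson 95% interval of Cd80 in 7N, 8.22 to 37.5 normalized reads, included the values of all 4 treated libraries.

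Cd86, which binds the same receptors as CD80, had 14 reads in 5N, 3 in 6R, 1 in 8N, 2 in 9L and none in the other libraries. The highest value of Cd86 was 1.80 normalized reads, in 6R, and the exact permutation test gave p = 0.657. CD86 is best known from dendritic cells and macrophages. The B7 ligand of ICOS was low but measurable. Icosl had 41.6, 43.0, 46.9 and 25.6 normalized reads in 5N, 6L, 6R and 10N and 39.1, 9.52, 50.4 and 47.7 in 5L, 7N, 8N and 9L. All libraries but 10N and 7N lay close together, and the value in 7N rested on 4 reads. The log2 difference of Icosl was 0.29 (95% confidence interval -0.77 to 1.36, limma p 0.555), and without 7N it was -0.24 (limma p 0.400), so that its direction depended on that library.

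Fasl was below the limit for testing, with 4 reads in 5N, 2 in 6L, 2 in 7N, 20 in 9L and none in the others. Its highest values, 4.76 normalized reads in 7N and 4.33 in 9L, were both in controls, and the exact permutation test gave p = 0.429. Its receptor gene Fas was expressed, at 77.2 ± 33.5 (SD, n = 4) normalized reads in treated tumors and 55.6 ± 22.5 (SD, n = 4) in controls, with a log2 difference of 0.46 (95% confidence interval -0.28 to 1.20, limma p 0.198).

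The abundant ligands differed by less than the spread between libraries. Lgals9 had 1724, 1820, 1548 and 1517 normalized reads in 5N, 6L, 6R and 10N and 1217, 1665, 1755 and 1786 in 5L, 7N, 8N and 9L. All libraries but 5L were at 1517 or above, and the log2 difference of Lgals9 was 0.05 (95% confidence interval -0.26 to 0.37, limma p 0.713), or -0.074 without 5L. Lgals9 was thus not called. Its promoter holds the ISRE letters shown above, and whether these letters act in these cells was not tested.

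Pvr had 1139, 1190, 1124 and 1132 normalized reads in 5N, 6L, 6R and 10N and 872, 1649, 1078 and 1184 in 5L, 7N, 8N and 9L. The treated libraries lay within the range of the controls, with an SD of 30.0 against 328. The log2 difference of Pvr was -0.02 (95% confidence interval -0.40 to 0.35, limma p 0.898), and without 7N, the highest library, it was 0.14. Cd276 had 1120, 1132, 913 and 1215 normalized reads in 5N, 6L, 6R and 10N and 1085, 1092, 1372 and 1316 in 5L, 7N, 8N and 9L. Its log2 difference was -0.15 (95% confidence interval -0.44 to 0.14, limma p 0.274), or -0.30 without 5L and 7N together (limma p 0.0433, not called), and Gm10657 on the opposite strand overlaps 11.4% of its exonic bases. Cd200 had 875, 1449, 1063 and 769 normalized reads in 5N, 6L, 6R and 10N and 489, 1147, 1040 and 887 in 5L, 7N, 8N and 9L. The highest Cd200 value was in 6L and the lowest in 5L, and the log2 difference was 0.25 (95% confidence interval -0.35 to 0.85, limma p 0.374), or -0.014 without 5L. For Lgals9, Pvr and Cd276 the confidence intervals did not reach the 1.5-fold limit of a call in either direction, whereas the interval of Icosl reached past it in both directions and that of Cd200 upward.

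**Figure D2:**
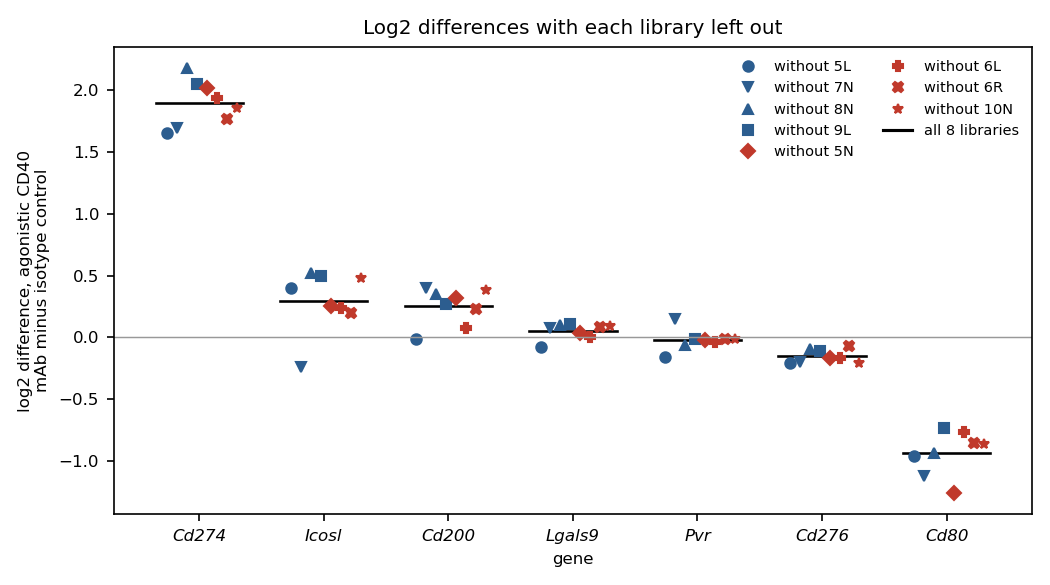
Log2 difference between agonistic CD40 mAb and isotype control (vertical axis, log2(value + 1) scale) of the 7 tested ligands with all 8 libraries (lines) and with each library left out in turn (symbols, blue for isotype control and red for agonistic CD40 mAb). Cd274 stays between 1.66 and 2.18, Cd80 between -1.26 and -0.73, and Icosl, Cd200, Lgals9 and Pvr cross 0 when 7N or 5L is left out.

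The median log2 difference of the 7 tested ligands was 0.05, beside 0.0046 over all tested genes, and 4 of the 7 were above 0, beside 51.3% of all tested genes. Calls were made for 1 of the 7 in each direction, Cd274 and Cd80, against 1.28% of all tested genes higher and 0.239% lower.

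Levels were compared between genes as normalized reads per kb of the longest annotated transcript. In controls the mean level per kb was highest for Lgals9, at 1013 ± 167 (SD, n = 4), followed by Pvr (412 ± 113), Cd200 (379 ± 123) and Cd276 (338 ± 41.4). Below them came Cd274 (23.6 ± 12.4), Icosl (13.0 ± 6.65) and Cd80 (9.35 ± 3.32). Pvr, Cd200 and Cd276 overlapped each other, and so did Cd274, Icosl and Cd80, since Cd274 spanned 12.8 to 38.3 per kb and Icosl 3.38 to 17.9. Pdcd1lg2, Fasl and Cd86 were at most 2.46 per kb in any library. With agonistic CD40 mAb the order of the upper 4 was Lgals9 (1042 ± 90.9), Cd200 (443 ± 128), Pvr (395 ± 10.3) and Cd276 (304 ± 35.7), where Cd200 overlapped both Pvr and Cd276 but Pvr, from 387 to 410, stayed above Cd276. Cd274 now stood at 80.9 ± 18.2 per kb and spanned 61.1 to 103, above all values of Icosl (9.08 to 16.7) and below all of Cd276 (253 to 337). Of the summed level per kb of the 10 ligands, Cd274 made up between 2.72% and 4.72% in treated tumors and between 0.567% and 1.62% in controls, while Lgals9 made up 43.1% to 48.3% over all libraries.

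**Figure D3:**
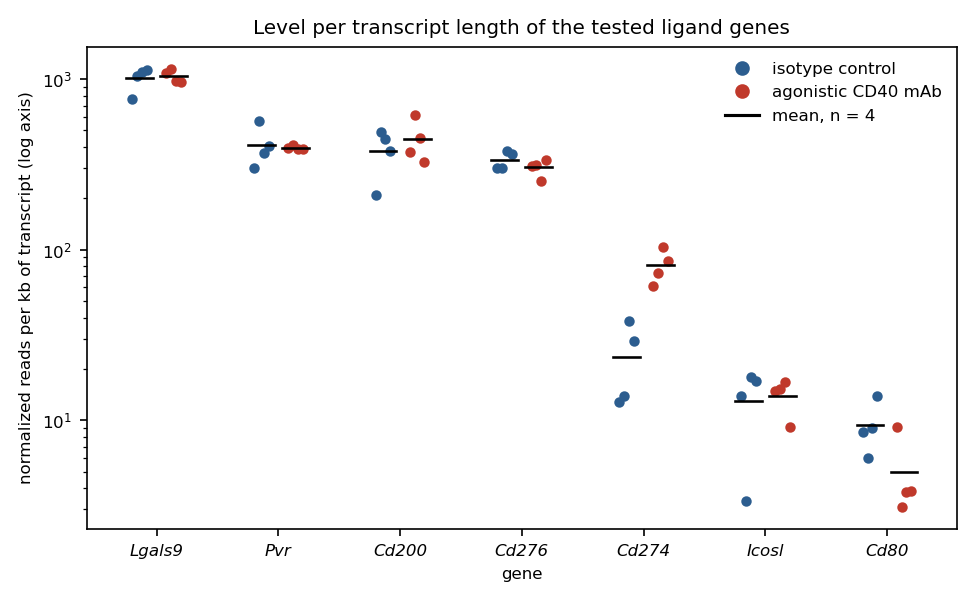
Normalized reads per kb of the longest transcript (vertical axis, logarithmic) of the 7 tested ligands in each library, with isotype control in blue, agonistic CD40 mAb in red and a line at the mean (n = 4). Cd274 is at 80.9 per kb on average in treated tumors and 23.6 in controls, between the abundant group of Lgals9, Pvr, Cd200 and Cd276 and the scarce Icosl and Cd80.

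A further list of 28 genes was drawn up around checkpoint and costimulatory ligands, and it also holds receptor genes such as Cd40. Of these 28, 18 were tested, of which 2 were called higher and none lower, against 1.28% and 0.239% of all tested genes. Their median log2 difference was 0.18, 13 of the 18 were above 0, and none had an adjusted limma p under 0.05. H2-T23, which encodes the nonclassical class I molecule Qa-1 that binds the NKG2A receptor, had 298, 717, 457 and 612 normalized reads in 5N, 6L, 6R and 10N and 120, 297, 313 and 293 in 5L, 7N, 8N and 9L. The groups overlapped through 5N alone, the ratio of means was 2.04, and the log2 difference was 1.04 (95% confidence interval 0.29 to 1.80, limma p 0.0110, adjusted p 1.00). H2-T23 was called in all 18 alternative fits. Of its 50-base windows, 14.5% also occur in transcripts of other genes, most often the class I gene H2-K1, so that its reads may be shared. Tnfsf18, the ligand of the costimulatory receptor GITR, had 201, 445, 348 and 197 normalized reads in 5N, 6L, 6R and 10N and 164, 121, 214 and 190 in 5L, 7N, 8N and 9L. The high values of Tnfsf18 were in 6L and 6R, and the log2 difference was 0.73 (95% confidence interval 0.11 to 1.35, limma p 0.0258, adjusted p 1.00). The call of Tnfsf18 was lost when 6L, 6R or 7N was left out, with log2 differences down to 0.51, and it was also lost without 5L and 7N together, with a log2 difference of 0.47.

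The most abundant of these further ligands were Lgals1 (galectin-1), Lgals3 (galectin-3) and Pvrl2 (nectin-2, a partner of TIGIT and CD226), and none of them was called. Their log2 differences were -0.01 for Lgals1, -0.09 for Lgals3 and 0.03 for Pvrl2, with signs that changed among the alternative fits. Vsir, which encodes the checkpoint ligand VISTA, had a log2 difference of 0.32 (95% confidence interval -0.14 to 0.78, limma p 0.150). Cd40, the target of the antibody and itself a costimulatory receptor, was expressed at 56.1 ± 10.2 (SD, n = 4) normalized reads in treated tumors and 47.7 ± 26.2 (SD, n = 4) in controls, with a log2 difference of 0.41 (95% confidence interval -0.48 to 1.29, limma p 0.332). Vtcn1 (B7-H4) and Cd70 had no read in any library.

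**Figure D4:**
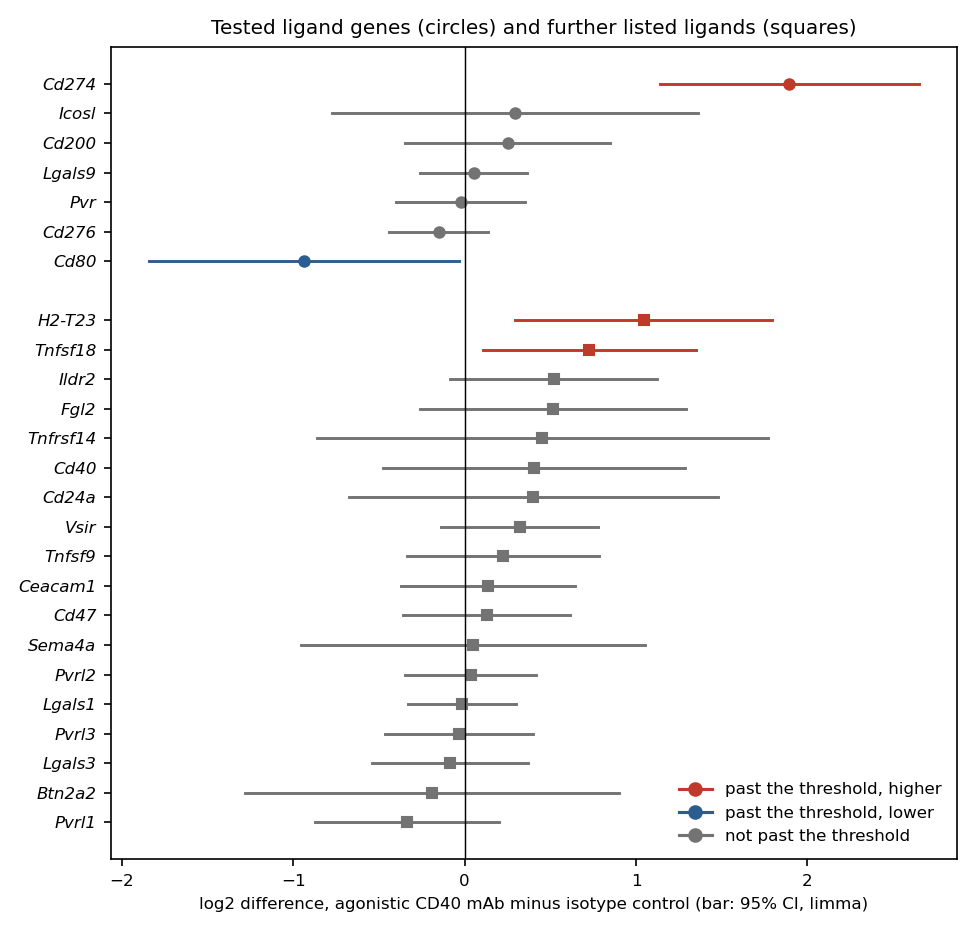
Log2 difference with its 95% confidence interval from limma (horizontal axis, agonistic CD40 mAb minus isotype control) for the 7 tested ligands (circles) and the 18 tested further ligands (squares), with red for higher and blue for lower past the threshold and gray for the rest. Cd274 at 1.89 has the highest value, H2-T23 follows at 1.04, and the interval of Cd80 at -0.94 ends just below 0.

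Most receptors of the ligands were scarce in these cells. Of 10 receptor genes, 2 were tested, Fas and Havcr2, and neither was called. Ctla4 had no read, Pdcd1 (PD-1) had 2 reads in 6R and none in the other libraries, and Cd28 was at most 4.53 normalized reads. Cd226 had reads in all 8 libraries, between 2.72 and 17.4 normalized reads, and with Tigit, Cd96, Icos and Cd200r1 it was below the limit for testing. The T-cell and NK-cell markers summed to 4.15 to 15.6 normalized reads in the treated libraries and to 0 to 10.2 in the controls, none of these 11 genes reached the limit for testing, and Cd3d had no read.

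The IFNγ receptor pathway that leads to PD-L1 was followed through 15 genes, all of which were tested. Calls were made for 3 of them, all higher, against 1.28% of all tested genes, 13 of the 15 were above 0, and the median log2 difference was 0.12. The receptor and kinase genes were not called, with log2 differences of 0.11 for Ifngr1 (95% confidence interval -0.30 to 0.52, limma p 0.565), -0.05 for Ifngr2 (-0.32 to 0.22, limma p 0.698), 0.03 for Jak1 (-0.32 to 0.38, limma p 0.843) and 0.12 for Jak2. The transcription factor genes Irf1 and Irf8 were higher.

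Irf1 had 784, 941, 1082 and 1330 normalized reads in 5N, 6L, 6R and 10N and 305, 454, 709 and 613 in 5L, 7N, 8N and 9L, without overlap, and its log2 difference was 1.03 (0.48 to 1.59, limma p 0.0019, adjusted p 0.460), or 0.62 without 5L and 7N together, with the call kept. Irf8, a partner factor of IRF1, spanned 410 to 726 in treated tumors and 269 to 395 in controls with a log2 difference of 0.76 (0.32 to 1.20, limma p 0.0030, adjusted p 0.599), and its call was lost without 5L and 7N together. Socs1, an inhibitor of JAK kinases that is itself induced by IFNγ, rose from 8.35 ± 5.58 to 23.7 ± 15.0 normalized reads (SD, n = 4) with a log2 difference of 1.46 (0.15 to 2.76, limma p 0.0318, adjusted p 1.00). The groups of Socs1 overlapped, and the call was lost when 6L, 6R, 10N, 5L or 7N was left out, with log2 differences of 1.06 to 1.49 in these fits. Without 5L and 7N together its log2 difference was 0.63 (limma p 0.252). Stat2 missed the 1.5-fold limit, with a ratio of 1.39 and a limma p of 0.0279. Cmtm6, whose product stabilizes PD-L1 protein at the cell surface, had a log2 difference of 0.04 (-0.26 to 0.34, limma p 0.770), and Stat3 and Irf2 were not called either.

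The pattern of Cd274 across the 8 libraries was compared with that of every other tested gene by Pearson's r of log2(value + 1), as a description without a test. The 5 genes most alike were Ido1 (r = 0.987), which encodes a tryptophan-degrading enzyme, Psmb9 (0.974), an immunoproteasome subunit, Ubd (0.973), a ubiquitin-like modifier, Parp12 (0.972), an ADP-ribosyltransferase, and Igtp (0.971), an IFN-induced GTPase. These values share the difference between the groups, the depth of each library and the normalization. After the group means were subtracted, r with Cd274 was 0.942 for Ido1, 0.921 for Psmb9, 0.880 for Ubd, 0.929 for Parp12 and 0.880 for Igtp. Within the control group 5L and 7N were low and 8N and 9L higher for Cd274, Psmb9 and Igtp alike. Ido1 had no read in 5L and 7N, where 3 reads would be 7.33 and 7.14 normalized reads, so its order among the controls cannot be read at this depth. Irf1 had r = 0.955 with Cd274. Of the other tested ligands, Icosl had the highest value (r = 0.435, and 0.546 after the group means were subtracted) and Cd80 the lowest (r = -0.555). The value of Cd80 reflects its difference between the groups, since it was 0.133 after subtraction, when Pvr was lowest at -0.112.

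**Figure D5:**
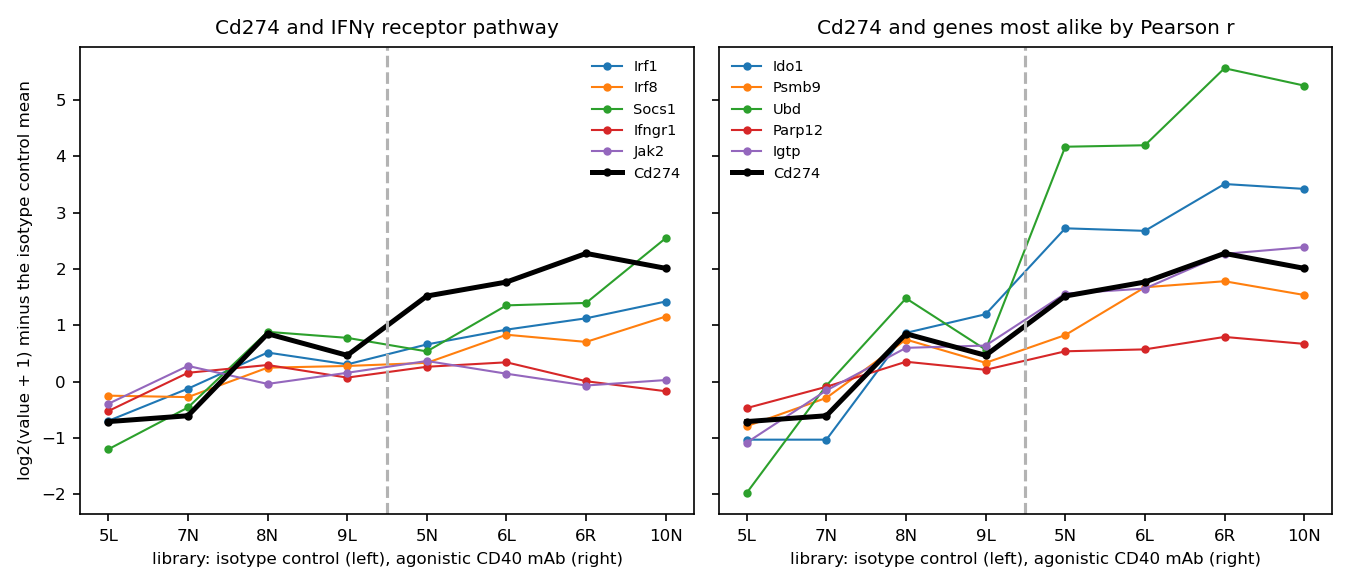
Log2(value + 1) of Cd274 (black) and of genes of the IFNγ receptor pathway (left) or the 5 genes most alike to it (right) in each library, relative to the mean of the isotype control libraries, which stand left of the dashed line. Lines join libraries for reading only, as these have no order, and they show Irf1 and the 5 genes high in the libraries where Cd274 is high, with Ifngr1 and Jak2 level.

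The sorted cells were checked with marker lists. Endothelial markers were abundant in all libraries, summing to between 42490 and 70297 normalized reads, with Pecam1 (CD31) and Cdh5 among the leading genes. Of the 12, 11 were above 0 with a median log2 difference of 0.16, and none was called. Melanoma markers summed to between 35745 and 60850 in treated tumors and to between 38674 and 93734 in controls, with 5L the highest, and the 7 genes, led by Tyrp1, Dct and Pmel, were all below 0 and none called. Fibroblast and mural markers, led by Col1a1, summed to between 37278 and 99120. Markers of tumor and stromal cells were thus present in every library, and in bulk RNA fewer cells of a type and less RNA per cell cannot be told apart. The 8 leukocyte markers summed to between 1188 and 1676, mostly through Lcp1, and of the 6 tested 4 were above 0 and none was called. Macrophage and dendritic cell markers summed to between 627 and 897 in treated tumors and to between 435 and 798 in controls. The largest on average was Zbtb46, at 216 ± 37.7 (SD, n = 4) in treated tumors and 212 ± 34.6 (SD, n = 4) in controls, with a log2 difference of 0.03. Of the 10 tested macrophage and dendritic cell markers, 8 were above 0, beside 51.3% of all tested genes. Their median log2 difference was 0.49, beside 0.0046 over all tested genes. Cd209a and Siglech had no read. Mrc1, 1 of the 10 tested, was called higher (ratio 1.74, limma p 0.0189), against 1.28% of all tested genes. Its groups did not overlap, which was seen for 1.09% of all tested genes in that direction. Its call was lost without 8N. The lymphatic endothelial markers summed to between 1967 and 4431 with none of 4 called, and the B-cell markers to at most 7.82. The part of these other cells in the values of Cd274, Cd80, Irf1, Irf8 and the further ligands was not tested.

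The libraries differed in depth by 21.9-fold, from 2971689 to 64938728 recovered reads on genes, and the 3 shallowest were controls. One read was worth between 0.118 and 2.44 normalized reads, so that genes such as Cd80, Icosl, Pdcd1lg2, Fasl and Cd86 were measured with less precision in the controls 5L, 7N and 8N. The control 9L was the second deepest library. Over all tested genes 166 were called higher and 31 lower with agonistic CD40 mAb.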

How the data were processed

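RNA of CD45- CD31+ cells from 8 tumors was sequenced, and 1 value per gene and library was analyzed. The authors prepared libraries with TruSeq RNA v2 reagents, used TopHat2 for alignment to mm10 and Partek Genomics Suite for gene assignment, and deposited gene counts divided by DESeq2 size factors, that is, a signal of normalized reads. The submitters' processing notes name CASAVA 1.8, Bowtie2 2.2.1, Partek 6.6 and DESeq2. Of the deposited values 99.9% lay within 0.1 read of a whole multiple of the step of their library, which gave the reads behind them. The study's methods name a correction for harvest day, which is not visible in these whole multiples. The labels give no harvest day that differs between libraries, so it could not be a term in the fits. Macrophage libraries were not used here.

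The log2(value + 1) values were fitted with limma 3.58.1 in R 4.3.3, with a trend and treatment as the only term, over 12969 genes with a larger group mean above 10, with Benjamini-Hochberg adjustment. Genes were called at 1.5-fold between group means, up or down, with p up to 0.05 before adjustment. An exact two-sided permutation test was added for single genes. edgeR 4.0.16 and DESeq2 1.42.0 were run on the recovered reads as alternatives. Other alternatives were pseudocounts of 0.1 and 10, all genes, a limit of 50, TMM factors, quantile normalization, limma without the trend and leaving out each library. Leaving out the 2 shallowest libraries was chosen after seeing the data. The labels name a mouse for each library, and the p-values measure the spread between these tumors.

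Positions, lengths and overlaps are from GENCODE M21 on mm10 (19291 symbols matched), and promoters from RefSeq (GRCm38.p6). The members and lists were chosen with earlier results of these data known. The text names all 10 ligands, of each further list the called genes and the 3 with the largest mean, the 5 genes most like Cd274 and its neighbors within 250 kb. Vsir, Cd40, Cmtm6, Ifngr1, Ifngr2, Stat2, Irf2 and the receptor genes were named besides. Some items are not reported here.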

Additional observations from a re-analysis of the deposited data

Results flagged for a closer look

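Single libraries stood apart from the other 3 of their group by Dixon's test in 5 of the 46 sets of 4 values examined, of which chance alone would flag about 1 in 20. Cd80 in 5N, at 29.0 normalized reads, was far above the other treated libraries, and without 5N its log2 difference was -1.26. Pdcd1lg2 was flagged for its highest library in each group, 5N at 1.30 and 9L at 0.217 normalized reads, where the other 3 libraries had no read, so that any read at all would have set these libraries apart. These 2 cases cannot be held against the chance rate. H2-T23 in 5L, at 120 normalized reads, was far below the other controls, and it was called higher without 5L as well. The summed melanoma markers in 5L, at 93734 normalized reads, were far above the other controls. The library 5L was also the shallowest, and without it the log2 difference of Cd274 was 1.66.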

How the results depend on the processing

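Cd274 was called higher in all 18 alternative fits, with log2 differences from 1.24 to 2.18 and adjusted p from 4.96e-05 to 0.852. Leaving out 1 library gave 1.66 to 2.18 for Cd274, -0.20 to -0.07 for Cd276, -0.074 to 0.11 for Lgals9, -0.16 to 0.14 for Pvr, -1.26 to -0.73 for Cd80, -0.24 to 0.52 for Icosl and -0.014 to 0.40 for Cd200. The direction turned for Lgals9 without 5L (-0.074), for Pvr (0.14) and Icosl (-0.24) without 7N and for Cd200 without 5L (-0.014). Without the 2 shallowest libraries it turned for Lgals9 (-0.10), Pvr (0.021) and Icosl (-0.35). Cd276 was at -0.30 there, its only unadjusted p under 0.05 (0.0433, limma), and was not called. Cd80 did not pass the threshold with all genes (-0.94), in edgeR (-0.94), in DESeq2 (-0.93) and without 6L, 6R, 10N, 5L, 8N or 9L, and it was not tested with a limit of 50. The number of ligands called was 2, but 1 with all genes, with a limit of 50, in edgeR, in DESeq2 and without any of the 6 libraries just named, through the loss of Cd80. Leaving out 1 library gave 1 to 2 ligands called. Over all genes, 166 were called higher, against 331 with all genes in the fit and 124 to 234 with 1 library left out. The number called lower was 31, against 93 with all genes, 13 with a limit of 50, 57 without the trend, 47 in edgeR, 58 in DESeq2 and 56 without the 2 shallowest libraries. It was 27 to 123 with 1 library left out, with 123 without 5L and 52 without 9L. The share of higher among called genes was 84.3%, and over the alternatives it ranged from 56.7% without 5L to 90% with a limit of 50, with 71.0% without the 2 shallowest libraries and 73.5% in DESeq2. The causes of these shifts were not tested. Depth limits the scarce ligands, since 3 reads are 7.33 normalized reads in 5L and 0.353 in 5N. No paired analysis was possible because the labels give no replicate numbers, and the mouse names of the groups share only 1 number.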
